A study of Homo sapiens with 9 samples.

Results

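The genes described here are the wound-induced keratins KRT6A, KRT6B, KRT6C, KRT16 and KRT17, together with KRT75, their close relative in the hair follicle. They were chosen by gene symbol, and make up 6 of the 16199 genes listed in at least 1 of the libraries. The libraries came from wild-type HaCaT cells, an immortalized human keratinocyte line, that had grown past confluence and were kept in serum-free medium in every group. Cells were left untreated, received EGF (10 nM) for 24 h, or received bleogen pB1 (1 µM) for 24 h, with 3 libraries in each group. Bleogen pB1 is a disulfide-rich miniprotein of the cactus Pereskia bleo that acts on the EGF receptor, and its dose differed from that of EGF. All 3 groups are of 1 cell line grown in culture, and the labels do not say that the 3 libraries of a group came from separate cultures, so the p-values below measure only the spread between these libraries.

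Keratins form the intermediate filaments of epithelial cells as pairs of a type I and a type II chain. KRT16 and KRT17 are type I chains, whereas KRT6A, KRT6B, KRT6C and KRT75 are type II chains. In resting epidermis between hair follicles the KRT6, KRT16 and KRT17 genes are nearly silent, and they are switched on in keratinocytes at the edge of a wound and in hyperproliferative skin diseases such as psoriasis. EGF receptor ligands are among the known inducers of these genes. KRT75 is a keratin of the companion layer of the hair follicle.

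The 9 libraries held between 20288417 and 21320994 expected counts (estimated numbers of fragments per gene), so that a level of 3 counts, used here as the floor, corresponded to 0.141 to 0.148 CPM (counts scaled to library size). This floor and all counting intervals cover counting error only. The 8 keratinocyte markers examined were all present and summed to 11020 to 14320 CPM per library. Markers of other cell types were far lower. The 6 fibroblast markers summed to 7.69 to 9.46 CPM in untreated cells, 1.27 to 1.88 CPM with EGF and 6.21 to 9.21 CPM with bleogen pB1. The 4 leukocyte markers summed to 11.9 to 12.6, 18.7 to 20.4 and 10.5 to 11.8 CPM, nearly all of it CD68 (214 to 428 counts per library, against at most 6 for PTPRC, CD3E and CD14), the 3 endothelial markers to 1.12 to 1.33, 0.241 to 0.441 and 0.575 to 1.31 CPM, and the 4 melanocyte markers to at most 1.60 CPM with TYR at 0. The part of these markers in the keratin results was not tested.

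In the GENCODE 44 annotation of GRCh38, the type II members lie on the minus strand of chromosome 12. KRT75 (NCBI gene 9119) spans chr12:52424070-52434371, KRT6B (3854) spans chr12:52446651-52452146, KRT6C (286887) spans chr12:52468516-52473805 and KRT6A (3853) spans chr12:52487176-52493257. These are protein-coding genes of 9 exons each. The type I members are neighbours on the minus strand of chromosome 17, KRT16 (3868) at chr17:41609778-41615899 and KRT17 (3872) at chr17:41619442-41624842, with 8 exons each. KRT17 and KRT75 each overlap a long noncoding RNA gene on the opposite strand, and it is not known if fragments were counted by strand, so reads of the partners cannot be told apart.

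The KRT6 genes are near-identical copies, and reads from one can fit another. Of all 100-base stretches of the main KRT6A transcript, 18.2% also occur without mismatch in another keratin gene, 10.7% in KRT6B and 17.7% in KRT6C. For KRT6B the share is 24.4% and for KRT6C 31.4%, so the counts of these 2 genes depend on how shared reads were divided. KRT16 shares 7.1% of such stretches, with KRT14 (3.8%) and the pseudogenes KRT16P3 (3.3%) and KRT16P2 (1.1%), KRT17 shares 0.4% and KRT75 shares 0.0%. The shares depend on the length chosen. For 50-base stretches they are 39.2% for KRT6A, 46.6% for KRT6B, 53.1% for KRT6C, 21.8% for KRT16 and 14.6% for KRT17, and in KRT16 the match to KRT16P3 (12.9%) then exceeds that to KRT14 (11.2%). No pseudogene of KRT6, KRT16 or KRT17 is among the 16199 listed genes, so reads from these pseudogenes had no entry of their own. Their part in the counts of the members was not tested.

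The members differed widely in abundance. KRT17 was among the 36 genes of highest FPKM (fragments scaled for gene length and library size) in every untreated library, KRT6A ranked 305 to 311 there, and KRT16 was a low transcript of a few FPKM. KRT6B, KRT6C and KRT75 were at or near the floor. Only KRT6A, KRT16 and KRT17 had enough counts to pass the filter for testing.

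KRT6A, the main type II partner of KRT16 and KRT17, was higher after either treatment, by far more with EGF. Its FPKM values were 201.66, 204.8 and 194.2 in the untreated libraries, 1014.1, 863.4 and 928.98 in the EGF-treated libraries and 260.91, 314.39 and 298.77 in the bleogen pB1-treated libraries. No 2 groups overlapped, and the order untreated, bleogen pB1, EGF held for every library. The group means were 200.2 ± 5.44, 935 ± 75.6 and 291 ± 27.5 FPKM (SD, n = 3 each).

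KRT16, the type I keratin that is the usual partner of KRT6A in activated epidermis, followed the same order at a much lower level. Its FPKM values were 3.87, 4.61 and 3.55 in untreated cells, 12.17, 17.14 and 15.19 with EGF and 8.12, 7.08 and 8.09 with bleogen pB1. The groups again did not overlap. Means were 4.01 ± 0.544, 14.8 ± 2.5 and 7.76 ± 0.592 FPKM (SD, n = 3 each), from 121 to 582 expected counts per library.

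KRT17, a type I keratin that also binds regulators of growth and translation, had a different order. Its FPKM values were 1396.94, 1530.78 and 1261.22 in untreated cells, 909.43, 1009.93 and 980.7 with EGF and 2258.51, 1671.29 and 1987.92 with bleogen pB1. Every EGF-treated library lay under every untreated one, and every bleogen pB1-treated library lay above. Means were 1396 ± 135, 967 ± 51.7 and 1973 ± 294 FPKM (SD, n = 3 each). In libraries of whole cultures, fewer cells making a keratin and less of its RNA per cell cannot be told apart.

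**Figure D1:**
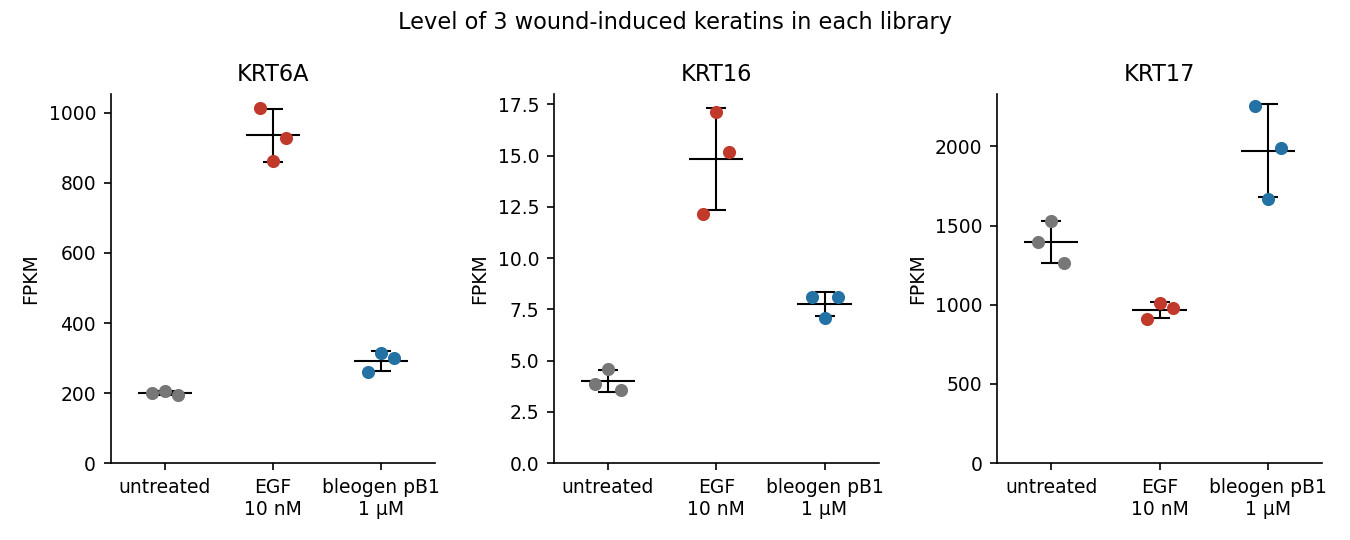
FPKM of KRT6A, KRT16 and KRT17 (linear vertical axes starting at 0, 1 panel per gene) in untreated, EGF-treated and bleogen pB1-treated HaCaT cells. Points are the 3 libraries of a group, the wide bar is the mean and the error bar its SD. KRT6A and KRT16 are highest with EGF, at 935 and 14.8 FPKM on average, whereas KRT17 is lowest with EGF (967 FPKM) and highest with bleogen pB1 (1973 FPKM).

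The effect of EGF on these genes was read from EGF-treated against untreated cells. A gene was called a DEG at an adjusted p of at most 0.05 and an absolute log2 fold change of at least 0.5. EGF upregulated 2 of the 3 tested members, KRT6A and KRT16, and no member was called lower. Among all 12394 genes tested, 15.1% were called higher and 21.8% lower with EGF. The higher calls were 41% of these DEGs, and 30.2% with upper-quartile factors. Non-overlap of groups, as given above for the members, was not counted over all genes. By adjusted p alone, 8187 of the tested genes passed with EGF. KRT6A was upregulated 4.89-fold, with a log2 fold change of 2.29 ± 0.081 (SE, n = 3 per group, adjusted p = 3.8e-10, edgeR quasi-likelihood test with Benjamini-Hochberg adjustment). KRT16 was upregulated 3.87-fold (log2 fold change 1.95 ± 0.142 SE, adjusted p = 1.7e-07, edgeR). Among all tested genes ordered by log2 fold change, KRT6A ranked 90 and KRT16 ranked 135 from the top.

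KRT17 passed the adjusted p but not the fold limit under EGF, so it was not a DEG. Its log2 fold change was -0.46 ± 0.104 (SE, n = 3 per group, adjusted p = 0.0016, edgeR), which is 0.726 times the untreated level. The value lay close to the limit of 0.5, and leaving out untreated replicate 3 moved it past the limit to -0.54. Scaling by upper-quartile factors gave -0.57, edgeR without scaling factors -0.52 and limma on log2(FPKM + 1) -0.53, all past the limit. The median of all genes was -0.12, -0.07 and -0.05 in these fits, and relative to it KRT17 stood at -0.45, -0.45 and -0.48, within the limit. Limma on log2(FPKM + 1) without a filter gave the same -0.53 at a median of -0.01, so that KRT17 stood at -0.51 relative to it, past the limit. The log2 fold change was that of the filtered limma fit, and the median differed because it also covered the genes that the filter leaves out. The adjusted p was 0.0015 with the filter and 0.0061 without it (limma).

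The same question for bleogen pB1 gave smaller differences in a comparison with far fewer DEGs. Bleogen pB1 upregulated 2 of the 3 tested members, again KRT6A and KRT16, and called none lower, whereas 0.218% of all tested genes were called higher and 1.26% lower. These are 27 upregulated genes in all, a number that single libraries moved. It was 13, 17 and 18 without untreated replicates 1, 2 and 3, and 100, 15 and 14 without bleogen pB1 replicates 1, 2 and 3, which is 0.104% to 0.798% of the genes tested. KRT16 was upregulated 1.90-fold (log2 fold change 0.93 ± 0.147 SE, n = 3 per group, adjusted p = 0.0036, edgeR). KRT6A was upregulated 1.43-fold with a log2 fold change of 0.52 ± 0.078 (SE, adjusted p = 0.0026, edgeR). The KRT6A value lay just above the fold limit, and it was under the limit without untreated replicate 3 (0.49) and without bleogen pB1 replicate 2 (0.46).

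For KRT17 the log2 fold change with bleogen pB1 was 0.48 ± 0.104 (SE, n = 3 per group, adjusted p = 0.027, edgeR), or 1.39-fold, and it was not a DEG because it missed the fold limit. Without bleogen pB1 replicate 2, the library with the lowest KRT17 of its group, the value was 0.58 (adjusted p = 0.0072, edgeR) and passed the limit. It also passed without untreated replicate 2, at 0.55. The adjusted p was lost without untreated replicate 1 (0.13), untreated replicate 3 (0.1) and bleogen pB1 replicate 3 (0.12, edgeR), and the lowest log2 fold change was 0.36, without bleogen pB1 replicate 1. With all libraries, limma also lost the adjusted p on log2(FPKM + 0.1) (0.069) and on log2(FPKM + 1) without a filter (0.082). It was kept by limma on log2(FPKM + 1) with the filter (0.042) and by DESeq2 (0.00033). Ordered by log2 fold change over all tested genes, KRT16 ranked 44, KRT6A 166 and KRT17 205 from the top. The median log2 fold change of the 3 tested members was 0.52, against -0.001 over all tested genes. With EGF the member median was 1.95, against -0.01 over all genes. Both comparisons share the untreated libraries.

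**Figure D2:**
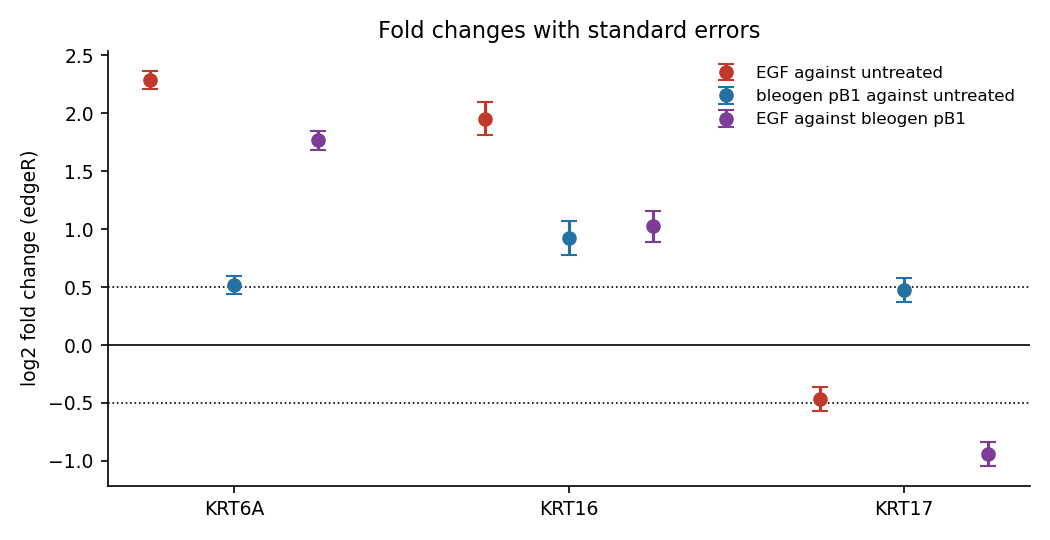
Log2 fold change (edgeR, vertical axis) of KRT6A, KRT16 and KRT17 in the 3 comparisons, with SE as error bars and dotted lines at the fold limits of 0.5 and -0.5. KRT6A and KRT16 lie above the upper limit in every comparison, KRT6A only just so with bleogen pB1 (0.52), and KRT17 lies past a limit only for EGF against bleogen pB1 (-0.94).

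The EGF-treated and bleogen pB1-treated cells were compared directly, at the different doses used. All 3 tested members were DEGs, 2 higher and 1 lower with EGF, beside 10.8% and 18.0% of all tested genes called in these directions. KRT6A was 3.41-fold higher with EGF (log2 fold change 1.77 ± 0.080 SE, n = 3 per group, adjusted p = 4e-09, edgeR) and KRT16 was 2.04-fold higher (1.02 ± 0.133 SE, adjusted p = 3.3e-05, edgeR). KRT17 was 1.92-fold lower with EGF than with bleogen pB1 (-0.94 ± 0.105 SE, adjusted p = 9.5e-06, edgeR). Neighbours in the order of group means therefore differed for KRT6A and KRT16 in every comparison, whereas for KRT17 only the extremes, EGF and bleogen pB1, differed by the full criteria.

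The type I members differed unequally between groups. The FPKM of KRT17 was 361, 332 and 355 times that of KRT16 in the untreated libraries, 74.7, 58.9 and 64.6 times with EGF and 278, 236 and 246 times with bleogen pB1. On the log2 scale, the KRT16 to KRT17 ratio was 2.41 higher with EGF than in untreated cells, 0.47 higher with bleogen pB1 and 1.94 higher with EGF than with bleogen pB1. No 2 groups overlapped in this ratio, and each of the 3 differences had p = 0.1 in a two-sided exact permutation test, the smallest p that 3 against 3 libraries allow.

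KRT17 and KRT6A also shifted against each other, a ratio chosen after its values were seen and not tested. KRT17 stood at 6.93, 7.47 and 6.49 times the FPKM of KRT6A in untreated cells, at 0.897, 1.17 and 1.06 times with EGF and at 8.66, 5.32 and 6.65 times with bleogen pB1. With EGF the ranges of both genes overlapped, whereas the untreated and bleogen pB1-treated groups overlapped with each other in this ratio.

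The remaining copies of KRT6 contributed almost nothing. KRT6A made up 99.957% or more of all KRT6 counts in each library. KRT6B had expected counts of 1.08, 1.01 and 0 in untreated, 18.28, 6.35 and 11.64 in EGF-treated and 0, 1.76 and 3.29 in bleogen pB1-treated libraries. Each EGF-treated library exceeded every library of the other groups. Summed over libraries, 36 counts with EGF against 2 in untreated cells gave a ratio of 17.7 per total count (95% exact interval 4.56 to 151.8), and 5 counts with bleogen pB1 against the same 2 gave 2.45 (0.402 to 25.8).

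KRT6B did not pass the count filter and so had no test in the fit reported here. In the fits that kept it, KRT6B was called higher with EGF than in untreated cells without a count filter (adjusted p = 0.00064, edgeR) and by DESeq2 (adjusted p = 0.0027), but not by limma on log2(FPKM + 1) without a filter, where its log2 fold change of 0.31 missed the fold limit (adjusted p = 0.0061). For every 100000 KRT6A counts there were 10.97, 10.21 and 0 KRT6B counts in untreated libraries, 36.45, 15.04 and 24.53 with EGF and 0, 11.2 and 22.26 with bleogen pB1. EGF-treated libraries overlapped here with those treated with bleogen pB1. The part that reads shared with KRT6A have in these few counts was not tested.

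KRT6C had counts of 0, 1.21 and 0 in untreated cells, 3.35, 2.96 and 2.92 with EGF and 0, 1.96 and 0 with bleogen pB1. All but 1 of these lay under the floor of 3 counts. The summed 9 counts with EGF against 1 in untreated cells gave a ratio of 8.85 with a 95% exact interval from 1.23 to 388. KRT75 was at 0 in 8 libraries and had 1 count in EGF replicate 2, so the companion-layer keratin was not detectable at this depth in any group.

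**Figure D3:**
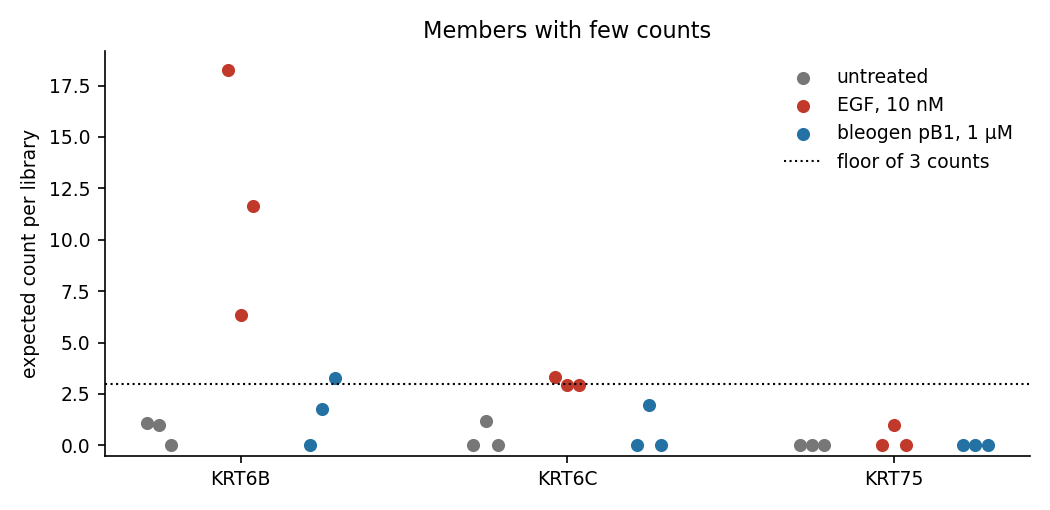
Expected counts per library (vertical axis, linear) of KRT6B, KRT6C and KRT75 in the 3 groups, 1 point per library, with the floor of 3 counts as a dotted line. KRT6B in the EGF-treated libraries (6.35 to 18.28 counts) stands above all others, and KRT75 is at 0 in 8 of 9 libraries.

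Because type I and type II chains are needed in pairs, the members were also placed among all 40 listed keratins, 18 of type I and 22 of type II. The 6 members held 15.2 ± 0.702% of all keratin FPKM in untreated cells, 18.5 ± 1.06% with EGF and 20.4 ± 0.678% with bleogen pB1 (SD, n = 3 each). KRT6A was 4.00 ± 0.0556% of type II FPKM in untreated cells, 17.8 ± 2.09% with EGF and 5.96 ± 0.855% with bleogen pB1. KRT17 was 25.2 ± 1.17%, 18.9 ± 0.0333% and 31.7 ± 1.21% of type I FPKM in the same groups. KRT16 stayed a minor type I chain, at 0.0722%, 0.289% and 0.125% on average.

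The ratio of summed type II to type I FPKM was 0.925, 0.880 and 0.910 in untreated libraries, 1.06, 1.02 and 1.02 with EGF and 0.743, 0.840 and 0.799 with bleogen pB1. No 2 groups overlapped, with the EGF-treated libraries highest and the bleogen pB1-treated libraries lowest. Total keratin FPKM was 10545 ± 452, 10387 ± 470 and 11125 ± 951 (SD, n = 3 each), and the groups overlapped. By mean FPKM among the keratins, KRT17 ranked 3 in untreated cells, 6 with EGF and 2 with bleogen pB1, KRT6A ranked 10, 7 and 9, and KRT16 ranked 14, 13 and 14.

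**Figure D4:**
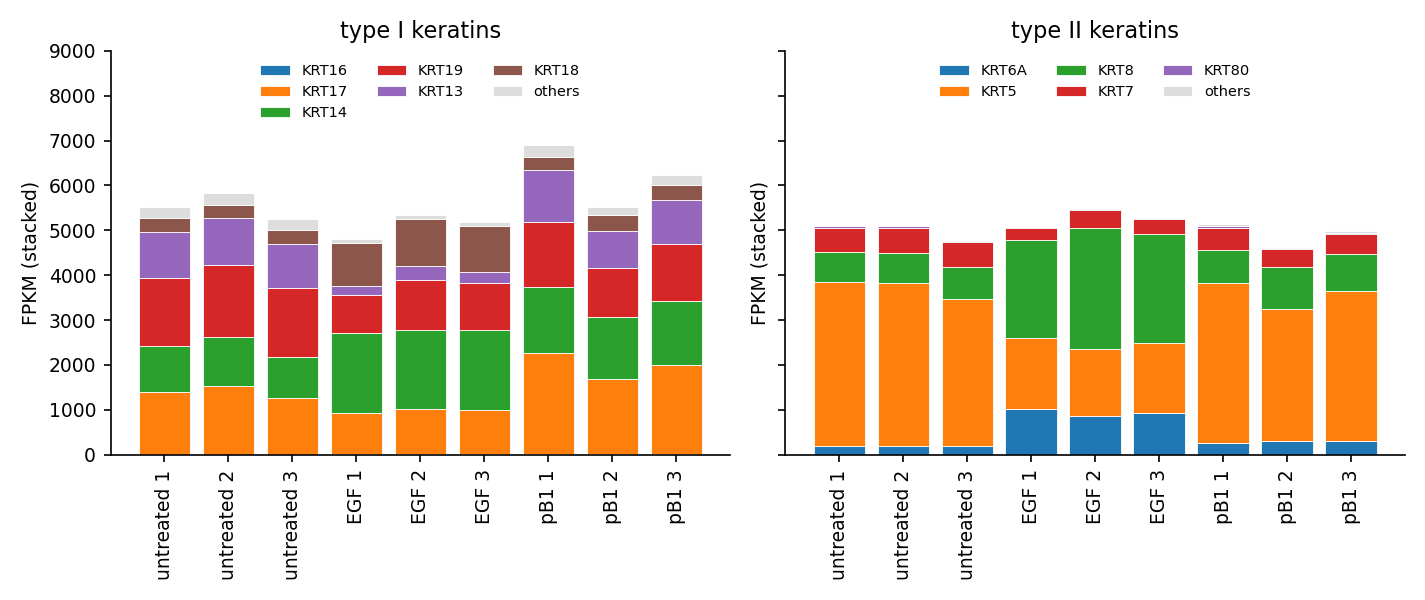
Stacked FPKM (vertical axis starting at 0) of type I keratins (left) and type II keratins (right) in each of the 9 libraries. With EGF the KRT6A segment widens to 17.8% of type II FPKM and the KRT17 segment narrows to 18.9% of type I FPKM, whereas with bleogen pB1 KRT17 reaches 31.7%. Segments outside the members change too. With EGF, KRT8 rises from 690 to 2440 FPKM on average and KRT5 falls from 3506 to 1547 FPKM.

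Of the other 34 listed keratins, 14 passed the count filter. With EGF, 4 of these were upregulated, 7 downregulated and 3 not called, with a median log2 fold change of -0.56. With bleogen pB1, 1 was upregulated and 13 were not called, with a median of 0.12. Over all tested genes, 15.1% were called higher and 21.8% lower with EGF, and 0.218% and 1.26% with bleogen pB1. With so few calls for bleogen pB1, a list without calls there is not set apart by it. The basal keratins split under EGF. KRT5, the basal type II chain and the keratin of highest FPKM in untreated cells (3506 ± 205, SD, n = 3), fell by 1.12 on the log2 scale (SE 0.081, adjusted p = 1.7e-07, edgeR), KRT15, a keratin of basal and stem cells, fell by 1.85 (SE 0.138, adjusted p = 2.2e-07), and KRT14, the basal type I chain, rose by 0.88 (SE 0.069, adjusted p = 3e-07). None of the 3 basal keratins was called with bleogen pB1. KRT14 had a log2 fold change of 0.48 there (SE 0.068, adjusted p = 0.0017, edgeR), the value also seen for KRT17.

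Of the 7 suprabasal keratins 4 were tested, and with EGF 1 rose and 1 fell, beside 15.1% and 21.8% of all tested genes. KRT1, the type II chain of differentiating epidermis, fell by 4.08 with EGF (SE 0.337, adjusted p = 5.1e-07, edgeR) and was the 1 keratin outside the members called with bleogen pB1, where it rose by 0.83 (SE 0.211, adjusted p = 0.048). Its type I partner KRT10 rose by 0.67 with EGF (SE 0.123, adjusted p = 0.00037). Of the 8 simple-epithelial and mucosal keratins 6 were tested, and with EGF 2 rose and 4 fell. None was called with bleogen pB1, where 0.218% of all tested genes were called higher and 1.26% lower. The mucosal keratins KRT4 and KRT13 fell by 3.56 and 1.90 with EGF (adjusted p = 4.4e-08 and 3.3e-07, edgeR), and KRT8, a type II keratin of simple epithelia, rose by 1.89 (adjusted p = 8e-09). Of 26 hair follicle keratins 14 were listed and none passed the count filter.

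**Figure D5:**
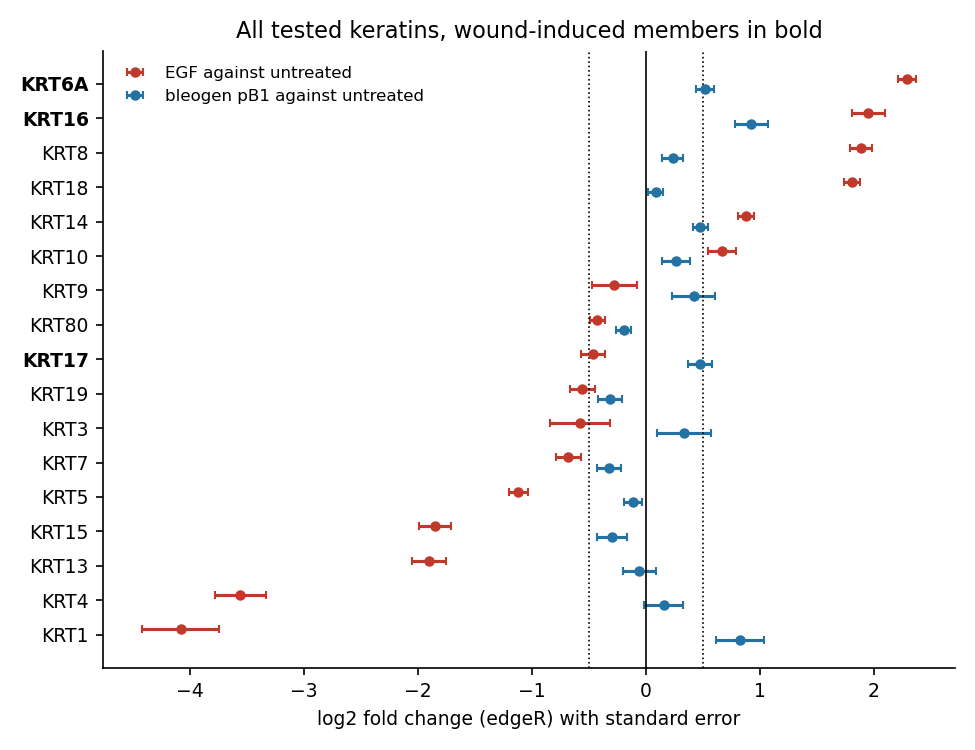
Log2 fold change with SE (horizontal axis, edgeR) of the 17 keratins that passed the count filter, ordered by their value with EGF, for EGF and bleogen pB1 against untreated cells, with dotted lines at 0.5 and -0.5. KRT6A (2.29) and KRT16 (1.95) have the highest values with EGF, and KRT16 (0.93) the highest with bleogen pB1. The lead of KRT16 is small. With EGF, KRT8 (1.89, SE 0.098) lies within the SE of KRT16 (0.142). With bleogen pB1, KRT1 (0.83, SE 0.211) lies within the SE of KRT16 (0.147).

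The wider set of keratinocyte activation genes, found at wound edges and in hyperproliferative epidermis, was mixed. Of the 20 genes of this list 13 were tested, of which 7 rose and 4 fell with EGF, with a median log2 fold change of 1.04. The shares over all tested genes were 15.1% and 21.8% with EGF, and 0.218% and 1.26% with bleogen pB1. SPRR1B, a cornified envelope precursor, rose by 3.71 with EGF (SE 0.202, adjusted p = 1.3e-08, edgeR), from 0.919 ± 0.270 to 12.1 ± 1.49 CPM (SD, n = 3 each). PI3, the elastase inhibitor elafin, was called higher (adjusted p = 3.7e-05), but its 48 summed counts with EGF stood against 1 in untreated cells (ratio 47.2, 95% exact interval 8.08 to 1903). With 5 summed counts with bleogen pB1, PI3 passed the count filter only through the EGF-treated libraries. Its call therefore adds no support to the 7 that rose. IVL, the envelope precursor involucrin, fell by 3.96 (SE 0.316, adjusted p = 3.7e-07). With bleogen pB1, 2 of the 13 rose, SPRR1B by 1.27 (SE 0.236, adjusted p = 0.01, edgeR) and PLAUR, the urokinase receptor, by 0.64 (SE 0.099, adjusted p = 0.0029), and none fell, with a median of 0.12.

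Of 13 transcription factors described at the promoters of KRT6, KRT16 or KRT17, 12 were tested. With EGF, 5 rose and 2 fell, beside 15.1% and 21.8% of all tested genes, with a median log2 fold change of 0.33. FOSL1, a subunit of the AP-1 factor, rose by 3.50 (SE 0.134, adjusted p = 6.2e-10, edgeR), from 39.1 ± 0.947 to 442 ± 33.8 CPM (SD, n = 3 each), and JUN, another AP-1 subunit, rose by 0.94 (SE 0.093, adjusted p = 2.4e-06). With bleogen pB1, none rose, 1 fell and 11 were not called, with a median of 0.001. In that comparison 0.218% of all tested genes were called higher and 1.26% lower. FOSL1 had a log2 fold change of 0.49 with bleogen pB1 (SE 0.130, adjusted p = 0.053, edgeR).

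Of 10 proteins that link or bind keratin filaments, all were tested, and 1 rose and 3 fell with EGF. None was called with bleogen pB1. The shares over all tested genes were 15.1% higher and 21.8% lower with EGF, and 0.218% and 1.26% with bleogen pB1. These counts therefore do not set the 10 genes apart. PLEC, encoding the linker plectin, rose by 1.72 with EGF (SE 0.103, adjusted p = 3.1e-08, edgeR). DST, which encodes the hemidesmosomal linker BPAG1, fell by 1.09 (SE 0.109, adjusted p = 2.7e-06), and TRADD, a death receptor adaptor bound by keratins, fell by 0.79 (SE 0.094, adjusted p = 1.1e-05).

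The genes most like each member were found by the distance between log2 CPM profiles over the 9 libraries, each centred on its untreated mean, among 10865 genes. The points share the same libraries and no p is given. Closest to KRT6A were PLAUR (distance 0.492, r = 0.988), MALL, a membrane raft protein (0.515, r = 0.987), and PTHLH, the parathyroid hormone-like hormone (0.525, r = 0.989). Their log2 fold changes with EGF were 2.35, 2.15 and 2.09, and with bleogen pB1 0.64, 0.73 and 0.51. KRT16 was closest to MALL (0.874), the organic anion transporter gene SLCO4A1 (0.954) and PLAUR (0.957), at larger distances than KRT6A had.

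Closest to KRT17 were RGMA, a repulsive guidance molecule (0.383, r = 0.948), CTSV, a cysteine protease of the epidermis (0.5, r = 0.935), and FBXO17, an F-box protein (0.518, r = 0.940). None of these 3 was a DEG against untreated cells in either treatment. The log2 fold changes of RGMA were -0.42 with EGF and 0.43 with bleogen pB1, those of CTSV -0.47 and 0.28, and those of FBXO17 -0.47 and 0.23. RGMA and FBXO17 were low transcripts, at 3.47 and 4.16 CPM in untreated cells, whereas CTSV was at 52.6 CPM.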

How the data were processed

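RNA of 9 HaCaT libraries was analysed, 3 untreated, 3 with EGF and 3 with bleogen pB1, grouped by their titles. Reads had been mapped by the authors' sequencing provider to GRCh38.p12, and the quantification program is not given in the sources used here. The authors deposited an expected count (an estimate that need not be whole, not scaled for depth) and a length-scaled FPKM for every listed gene. A gene without an entry was counted as 0. After rounding of the expected counts, the main test was that of edgeR 4.0.16 under R 4.3.3 (filterByExpr, TMM factors, glmQLFit and glmQLFTest, all 9 libraries in one fit, 12394 genes, Benjamini-Hochberg adjustment over all of them). The SE was obtained by dividing the size of each log2 fold change by the root of its F statistic. Library totals were 20288417 to 21320994 expected counts. Replicates differed by more than sampling noise in every group, with a chi-square per gene of at least 4.08.

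The members and gene lists were chosen with earlier results of these data known. Besides the members, at most 3 called genes of each list were named, those with the largest absolute log2 fold change with EGF, and the 3 genes most alike to each tested member among those with at least 50 counts on average. Of the genes that meet this rule, 1 is not reported here. Shares of 100-base and 50-base stretches came from GENCODE 44 transcripts of 212 keratin genes, pseudogenes included. Of the members, KRT75 had an entry among the RefSeq promoters used here, and no motif was searched. The alternatives were DESeq2 1.42.0, limma 3.58.1 on log2(FPKM + 1) or log2(FPKM + 0.1), RLE, upper-quartile or no scaling factors, other filters and fold limits, the 6 compared libraries alone, KRT6 counts summed, a replicate block, and each library left out. The edgeR fit, and not the other tests, was tried on simulated data, in which it recovered 200 of 200 genes changed 2-fold. The 2 simulations gave 2 and 1 false calls. All changed genes had more than 50 counts on average, and every gene was given the same spread. Smaller changes and lower counts were not simulated, so the recovery does not cover them. Python 3.11.15, numpy 2.4.6, scipy 1.17.1, pandas 2.3.3 and matplotlib 3.10.9 were used.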

Additional observations from a re-analysis of the deposited data

How the results depend on the processing

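KRT6A and KRT16 stayed higher with EGF than in untreated cells in every alternative, with log2 fold changes of 2.18 to 2.35 and 1.65 to 2.08. The number of members called there was 2 and ranged from 2 to 4 when 1 library was left out, with KRT6B and KRT17 added without untreated replicate 3. For EGF against bleogen pB1 the count was 3, ranged from 3 to 4 with 1 library left out (KRT6B added), and was 2 at a fold limit of 1, where KRT17 missed it. In the fits with 1 library left out, KRT6B passed the count filter only through the EGF-treated libraries. It had at most 1.08 counts in untreated and 3.29 in bleogen pB1-treated libraries, so these calls of KRT6B add no support. For bleogen pB1 against untreated cells it was 2, ranged from 1 to 3 with 1 library left out, was 1 (KRT16) without untreated replicate 3, and was 0 at a fold limit of 1, with KRT6A at 0.46 to 0.59 and KRT16 at 0.81 to 1.04 over the alternatives. KRT17 against untreated cells lay between -0.57 and -0.39 with EGF (adjusted p 5.4e-05 to 0.011) and between 0.36 and 0.58 with bleogen pB1 (adjusted p 0.00033 to 0.13), so that its call turned on the setting while its direction did not. The KRT16 to KRT17 ratio differed alike in CPM. No member reversed. The ratio of KRT6A to KRT6B was not computed because KRT6B was at 0 in 2 libraries. Over all genes, 4578 DEGs with EGF became 8187 by adjusted p alone and 1892 at a fold limit of 1, 183 with bleogen pB1 became 509 and 31, and 3564 between the treatments became 7214 and 1458. The 183 became 92 with limma without a filter and 102 to 436 with 1 library left out. Upper-quartile factors moved the share of DEGs called higher with EGF from 41% to 30.2%. The replicate numbers come from the titles alone. Same-numbered libraries of different groups correlated at -0.11 to 0.30. The own number correlated best in 12 of 18 cases, more often than unrelated numbers would on average. The main fit left any pairing by number out. With the number as a replicate block 2, 2 and 3 members were called, as without it. The depth does not resolve KRT6C or KRT75.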
